A study of Mus musculus with 10 samples.

Results

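The lysosome and autophagy genes described here are 46 named mouse genes of lysosomal membranes, lysosomal enzymes, the lysosomal proton pump, the MiT/TFE transcription factors and the autophagosome. They were taken by gene symbol from a table of FPKM that lists 56748 genes in 10 mouse liver libraries. FPKM is a read count divided by transcript length and by a number for each library, which here was not the summed reads. All 46 were found and all 46 passed the filter for testing (at least 1 FPKM in at least 3 of the 10 libraries), which left 12439 genes. In what follows FPKM is a level per length, a log2 change is a difference of group means of log2(FPKM + 1), a fold is a ratio of mean FPKM, and "called" stands for an adjusted p below 0.05 (limma, two-sided, Benjamini-Hochberg over all tested genes).

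Of the libraries 4 came from normal liver (FVB, genotype WT), 3 from tumours induced by Akt and Nras, and 3 from tumours induced by Akt, Nras and Foxo1AAA, which the titles also write FoxoAAA. As a mouse model of hepatocellular carcinoma, the tumours were raised by hydrodynamic injection into the tail vein, which puts plasmid DNA into hepatocytes of WT mice. Akt and Nras drove the tumours of both groups, and Foxo1AAA is a FOXO1 that AKT cannot phosphorylate and inactivate. The sources used here give no age or sex and no injection for the normal livers. The whole reads behind the values numbered 13.6 to 21.3 M per library.

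The lysosome is the acidic compartment in which cells break down proteins, glycans, lipids and whole organelles, and autophagy is the route by which a closed membrane, the autophagosome, wraps cytoplasm and carries it there. The transcription factors TFEB and TFE3 switch on lysosomal and autophagy genes through a DNA motif around CACGTG, and active mTORC1, which lies downstream of AKT, holds them in the cytoplasm. FOXO factors are also known to switch on autophagy genes, among them Gabarapl1, Bnip3 and Atg14, and liver is a tissue in which fasting raises autophagy.

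The injected genes were read first. In normal liver Foxo1 was 6.75 to 8.02 FPKM, in Akt/Nras tumours 5.37 to 6.05 and in Akt/Nras/Foxo1AAA tumours 77.9 to 125, while Akt1 was 20.6 to 21.6, 720 to 963 and 670 to 1198 FPKM. Nras was 4.84 to 5.56, 9.62 to 11 and 8.96 to 9.46 FPKM in the same order. Hepatocyte markers were abundant in every library (summed FPKM of 8 genes 80780 to 86270, 41180 to 42860 and 51130 to 63560), so the labelled tissue carried its defining genes. Of these 8 genes 7 were called lower and 1 higher in each tumour group (median log2 changes -2.30 and -1.43). Of all tested genes 37.9% and 36.5% were called lower. With every library set to the same total, 5 of the 8 were called lower in each, beside 13.8% and 13.5% of all tested genes. Summed FPKM of 19 macrophage and Kupffer cell markers was 209 to 352, 663 to 910.0 and 632 to 946 in the same order. The 6 stellate cell markers summed to 30.4 to 36.5, 95.1 to 125 and 66.4 to 87.8 FPKM, the 6 cholangiocyte markers to 16.3 to 24.2, 4219 to 5905 and 2769 to 5511, and the 6 endothelial markers to 27.4 to 35.5, 29.5 to 41.6 and 32.1 to 39.6. The 8 neutrophil markers summed to 0.965 to 4.27, 14.3 to 30.3 and 9.11 to 31.5 FPKM in the same order. T cell and B cell markers summed to at most 2.22 and 1.68 FPKM. In bulk tissue, fewer cells of a type and less RNA per cell cannot be told apart.

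The scaling of the deposited values decides many directions and is given before the results. The FPKM of a normal liver summed to 692010 to 743203, of an Akt/Nras tumour to 349619 to 381653 and of an Akt/Nras/Foxo1AAA tumour to 413812 to 444893. With the deposited values the median log2 change of all tested genes against normal liver was -0.07 in Akt/Nras and -0.09 in Akt/Nras/Foxo1AAA tumours, and with every library set to the same total it was 0.70 and 0.47. A median-ratio factor was also taken for each library, the median over genes of its whole reads relative to all libraries. The number that the authors divided each library by was set against this factor. Relative to the mean, that ratio was 0.963 to 1.03. With median-ratio scaling the 2 medians were -0.03 and -0.03, and no called member turned sign. Directions below are those of the deposited scaling. Where equal totals turned a called one, that is said beside it. In each comparison with normal liver 18 of the called members kept call and direction under every alternative that tested them; 5 members (Gla, Tfeb, Tfe3, Atp6v0d2 and Atg12) were too low to be tested with a 5 FPKM filter.

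In normal liver the members spanned 2.45 FPKM (Atp6v0d2) to 349 FPKM (Lamp1), with 10 members at 100 FPKM or more and 16 under 10. The median member lay at the 82.4th percentile of all tested genes. Summed over the 46 members, the normal livers held 2775 to 2874 FPKM, the Akt/Nras tumours 2246 to 2678 and the Akt/Nras/Foxo1AAA tumours 2801 to 2979. As a share of all FPKM this was 0.387% to 0.405%, 0.642% to 0.706% and 0.630% to 0.695%. Akt/Nras tumour 2 was the lowest of its group for 35 of the 46 members.

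Against normal liver, 14 members rose and 21 fell in Akt/Nras tumours (30.4% and 45.7% of 46), where 69.0% of all tested genes were called, 31.1% higher and 37.9% lower. In Akt/Nras/Foxo1AAA tumours 17 rose and 15 fell, beside a background of 63.3% called, 26.8% higher and 36.5% lower. These shares lie near those of all genes, and the medians of the members' log2 changes were -0.16 and 0.05. Under equal totals the same counts became 34 higher and 5 lower in each tumour group (73.9% and 10.9%), beside a background of 83.0% called in Akt/Nras tumours, 69.2% higher and 13.8% lower, and of 74.5% in Akt/Nras/Foxo1AAA tumours, 61.0% higher and 13.5% lower. The all-gene shares given here, for the deposited values and for equal totals, are the background of each count against normal liver below. The heat map of all libraries shows that the members did not move as a block.

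**Figure D1:**
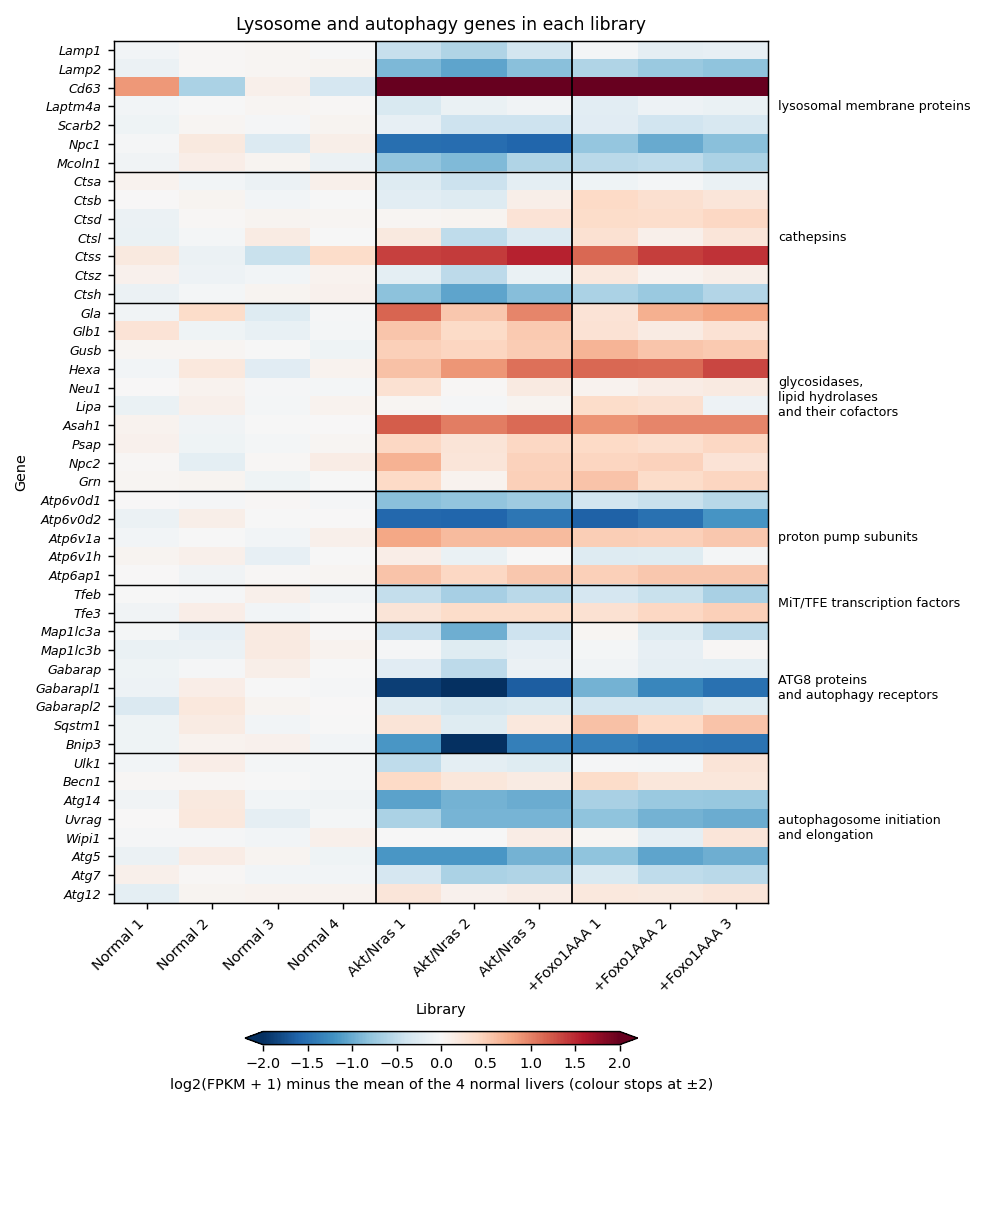
Heat map of the 46 genes (rows, grouped by role) in the 10 libraries (columns); colour is log2(FPKM + 1) minus the mean of the 4 normal livers. The enzymes and cofactors of the third block are mostly red in the tumours, whereas Npc1, Atp6v0d2, Gabarapl1 and Bnip3 are blue in all 6 tumour libraries and Cd63 is off the scale upwards.

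The 13 members that rose in Akt/Nras tumours under every alternative that tested them were Cd63, Ctss, Asah1, Gla, Hexa, Glb1, Gusb, Npc2, Psap, Atp6v1a, Atp6ap1, Tfe3 and Becn1. The 5 that fell under every such alternative were Gabarapl1, Npc1, Atp6v0d2, Bnip3 and Atg14. In Akt/Nras/Foxo1AAA tumours the corresponding sets were 13 higher (Cd63, Ctss, Hexa, Asah1, Gusb, Psap, Grn, Ctsd, Atp6v1a, Atp6ap1, Tfe3, Sqstm1 and Becn1) and 5 lower (Gabarapl1, Atp6v0d2, Bnip3, Atg5 and Uvrag). Of these Gla, Tfe3 and Atp6v0d2 were not tested with the 5 FPKM filter. Both comparisons share the 4 normal livers, so their values are given side by side and not as independent results.

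The 2 MiT/TFE transcription factors moved in opposite directions. Tfeb was 3.59, 3.54, 3.98 and 3.40 FPKM in normal livers, 2.32, 1.93 and 2.17 in Akt/Nras tumours and 2.67, 2.38 and 1.95 in Akt/Nras/Foxo1AAA tumours. No tumour library reached the lowest normal liver, and the log2 changes were -0.56 ± 0.09 (standard error; adjusted p = 0.00034) and -0.48 ± 0.09 (adjusted p = 0.00124). Under equal totals these became 0.15 and 0.06, neither called. Tfe3 was 2.44, 2.97, 2.46 and 2.60 FPKM in normal livers, 3.33, 3.64 and 3.64 in Akt/Nras tumours and 3.48, 3.81 and 4.04 in Akt/Nras/Foxo1AAA tumours. All 6 tumours lay above all normal livers (log2 changes 0.33 ± 0.08, adjusted p = 0.00446, and 0.40 ± 0.08, adjusted p = 0.0015), and the call held under every alternative except the 5 FPKM filter, which left Tfe3 untested. RNA levels do not show where in the cell these proteins were.

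The motif that these factors bind was looked for in the promoters of the members. RefSeq windows of 300 bases (250 before and 50 after a start site, GRCm38.p6) were at hand for 37 of the 46 members. CACGTG, which reads the same on both strands, occurred in the windows of 13 of the 37 (35.1%) and in 8.09% of 27025 genes. GTCACGTG, searched on both strands and always containing CACGTG, occurred in 9 members (24.3%) and in 2.55% of genes. The forkhead motif GTAAACA, searched on both strands, occurred in 0 of the 37 and in 4.05% of genes. The next 4 stretches are shown because their genes hold the motif and moved apart in Akt/Nras tumours: Lamp1 and Mcoln1 fell (both turned above 0 under equal totals), and Glb1 and Gla rose. Each is written 5′ to 3′ on the gene's strand, capitals mark CACGTG, with its 2 neighbouring bases where they complete GTCACGTG on either strand.
Lamp1: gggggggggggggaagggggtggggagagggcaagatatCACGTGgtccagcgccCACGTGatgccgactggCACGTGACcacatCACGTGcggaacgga
Mcoln1: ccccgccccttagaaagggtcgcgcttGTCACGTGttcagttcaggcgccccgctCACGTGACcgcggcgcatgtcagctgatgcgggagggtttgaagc
Glb1: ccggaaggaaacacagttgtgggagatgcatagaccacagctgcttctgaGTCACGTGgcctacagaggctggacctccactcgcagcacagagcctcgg
Gla: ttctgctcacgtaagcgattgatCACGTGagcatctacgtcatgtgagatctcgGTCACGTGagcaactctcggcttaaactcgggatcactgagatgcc
The Lamp1 stretch (chr8:13159061-13159160, + strand) is the 100 bases just before the start site and holds CACGTG 4 times. That of Mcoln1 (chr8:3500419-3500518, + strand) holds it 2 times and that of Glb1 (chr9:114400978-114401077, + strand) 1 time, again just before the start. The Gla stretch (chrX:134601156-134601255, - strand) is the most distant 100 bases of its window and holds the motif 2 times. Of the 9 members with GTCACGTG (Lamp1, Mcoln1, Glb1, Gla, Ctsa, Ctsd, Atp6v0d1, Atg7 and Atg14), 2 rose and 6 fell in Akt/Nras tumours, and 2 rose and 4 fell in Akt/Nras/Foxo1AAA tumours. Under equal totals 7 were higher and 1 (Atg14) lower, and 6 higher and 0 lower. A match describes these letters and is not evidence of binding.

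Among the 7 lysosomal membrane proteins 1 rose and 5 fell in Akt/Nras tumours, and 1 rose and 4 fell in Akt/Nras/Foxo1AAA tumours; under equal totals the split turned to 4 higher and 1 lower, and 4 and 0. Cd63 (ENSMUSG00000025351), a tetraspanin of late endosomes, lysosomes and secreted vesicles, showed the largest change of all members. It stood at 5.94, 1.45, 3.09 and 2.03 FPKM in normal livers, 100.6, 74.1 and 84.9 in Akt/Nras tumours and 49.2, 62.5 and 93.8 in Akt/Nras/Foxo1AAA tumours. The lowest tumour was far above the highest normal liver, with log2 changes of 4.51 ± 0.33 (27.7-fold, adjusted p = 6.15e-07) and 4.14 ± 0.33 (21.9-fold, adjusted p = 1.94e-06). Its processed pseudogene Cd63-ps was listed at 0.764 to 3.22, 28.7 to 32.6 and 17.5 to 35.0 FPKM, so reads of the pair may be split between them.

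Npc1 encodes the membrane protein that exports cholesterol from lysosomes. It measured 21.4, 25.0, 17.9 and 23.7 FPKM in normal livers, 7.05, 6.92 and 6.57 in Akt/Nras tumours and 12.4, 10.4 and 11.8 in Akt/Nras/Foxo1AAA tumours. The 3 groups did not overlap, and the log2 changes against normal liver were -1.54 ± 0.11 (adjusted p = 6.18e-07) and -0.87 ± 0.11 (adjusted p = 5.98e-05). The second was -0.19 and not called under equal totals (adjusted p = 0.167). Npc1 overlaps Rmc1 on the opposite strand, and since strand use in counting was not stated, reads of the pair cannot be told apart.

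Lamp1 and Lamp2, the most abundant glycoproteins of the lysosomal membrane, differed in how far they fell. Lamp1 was 336, 355, 357 and 348 FPKM in normal livers, 254, 229 and 270.3 in Akt/Nras tumours and 339, 307 and 311 in Akt/Nras/Foxo1AAA tumours. It fell in Akt/Nras tumours (-0.48 ± 0.09, adjusted p = 0.000518), was called in the other direction under equal totals (0.49), and did not pass the test in Akt/Nras/Foxo1AAA tumours (-0.13 ± 0.09, adjusted p = 0.202), where equal totals gave a called 0.59 (adjusted p = 4.72e-05). Lamp2 was 73.6, 81.6, 81.8 and 83.0 FPKM in normal livers, 42.4, 38.0 and 44.3 in Akt/Nras tumours and 52.3, 47.2 and 45.2 in Akt/Nras/Foxo1AAA tumours. It fell in both (log2 -0.93 and -0.72), with values of 0.03 and -0.01 under equal totals, neither called. Scarb2, the receptor that carries glucocerebrosidase to lysosomes, and Mcoln1, a lysosomal calcium channel, also fell in both comparisons, by at most 0.76 on the log2 scale, and turned above 0 under equal totals. Laptm4a did not pass the test in either.

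Of the 7 cathepsins, the proteases of the lysosome, 1 rose and 3 fell in Akt/Nras tumours, and 3 rose and 1 fell in Akt/Nras/Foxo1AAA tumours; under equal totals 6 were higher and 0 lower in each. Ctss, a cysteine protease best known from antigen-presenting cells, was 22.0, 17.6, 13.9 and 25.2 FPKM in normal livers, 51.0, 52.0 and 57.9 in Akt/Nras tumours and 43.9, 51.8 and 54.0 in Akt/Nras/Foxo1AAA tumours. Every tumour lay above every normal liver (1.44 ± 0.17, adjusted p = 2.64e-05, and 1.33 ± 0.17, adjusted p = 6.27e-05). The macrophage list moved with it: 11 of its 16 tested genes rose in each comparison, and 3 (Clec4f, Timd4 and Cd5l, markers of Kupffer cells) fell in Akt/Nras tumours. Its part in the change of Ctss, Cd63 or the enzymes below was not tested.

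Ctsd, the aspartic protease of lysosomes, was 138, 153, 156 and 154 FPKM in normal livers, 154, 157 and 182 in Akt/Nras tumours and 194, 191 and 201 in Akt/Nras/Foxo1AAA tumours. All 3 Akt/Nras/Foxo1AAA tumours lay above all other libraries, and the change against normal liver was 0.38 ± 0.09 (adjusted p = 0.00296). Ctsh, which trims proteins from the amino end, was 56.7, 60.1, 64.0 and 65.5 FPKM in normal livers, 34.3, 29.2 and 33.8 in Akt/Nras tumours and 39.3, 36.2 and 40.6 in Akt/Nras/Foxo1AAA tumours. Its log2 changes of -0.91 and -0.66 (adjusted p = 4.94e-06 and 7.6e-05) became 0.04 and 0.05 under equal totals. Ctsa, a carboxypeptidase that protects beta-galactosidase and sialidase, was 64.7, 59.2, 56.7 and 65.7 FPKM in normal livers, 51.0, 45.3 and 53.7 in Akt/Nras tumours and 57.9, 59.9 and 55.7 in Akt/Nras/Foxo1AAA tumours. Only its fall in Akt/Nras tumours was called among these comparisons (-0.30 ± 0.09, adjusted p = 0.0103), and it turned to 0.66 under equal totals.

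Among the members, the enzymes and cofactors that break down glycans and lipids were called in a single direction. Of these 10 genes 8 rose and 0 fell in Akt/Nras tumours, and 7 rose and 0 fell in Akt/Nras/Foxo1AAA tumours, with median log2 changes of 0.47 and 0.42 against -0.07 and -0.09 for all genes. Under equal totals 10 of 10 were higher in each, where 69.2% and 61.0% of all tested genes were. Asah1, acid ceramidase, was 10.1, 9.01, 9.43 and 9.61 FPKM in normal livers, 23.2, 20.4 and 22.1 in Akt/Nras tumours and 18.7, 19.6 and 19.7 in Akt/Nras/Foxo1AAA tumours. Its libraries were tight in every group, and it rose 2.30-fold and 2.03-fold (log2 1.12 ± 0.07, adjusted p = 2.74e-07, and 0.95 ± 0.07, adjusted p = 1.48e-06). Hexa, the alpha subunit of beta-hexosaminidase, was 21.6, 26.0, 18.9 and 23.4 FPKM in normal livers, 34.0, 42.1 and 49.0 in Akt/Nras tumours and 50.6, 50.4 and 58.0 in Akt/Nras/Foxo1AAA tumours. Tumours of both groups exceeded all normal livers (0.86 ± 0.14, adjusted p = 0.000217, and 1.21 ± 0.14, adjusted p = 2.37e-05).

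Gla, alpha-galactosidase A, was 2.30, 3.48, 1.89 and 2.40 FPKM in normal livers, 6.82, 4.05 and 5.86 in Akt/Nras tumours and 3.21, 4.68 and 5.0 in Akt/Nras/Foxo1AAA tumours. The Akt/Nras tumours lay above the normal livers (0.90 ± 0.19, adjusted p = 0.00163). The Akt/Nras/Foxo1AAA tumours overlapped them, and that call (0.59 ± 0.19, adjusted p = 0.0194) was lost without normal liver 3 (adjusted p = 0.0522), tumour 2 (0.0688) or tumour 3 (0.0759). Psap, the precursor of the saposins that present lipids to these enzymes, became the most abundant member in the tumours, at 344 and 348 FPKM on average against 266 in normal liver (log2 0.37 and 0.39). Gusb (beta-glucuronidase), Npc2 (the soluble partner of NPC1) and Grn (progranulin) rose in both comparisons by 0.31 to 0.59. The rise of Grn in Akt/Nras tumours was lost without normal liver 3, tumour 1 or tumour 3 (adjusted p up to 0.0921), and that of Npc2 in Akt/Nras/Foxo1AAA tumours without tumour 2 (0.0593). Glb1 (beta-galactosidase) was called in Akt/Nras tumours (0.49), and Neu1 (sialidase) and Lipa (acid lipase) in neither.

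**Figure D2:**
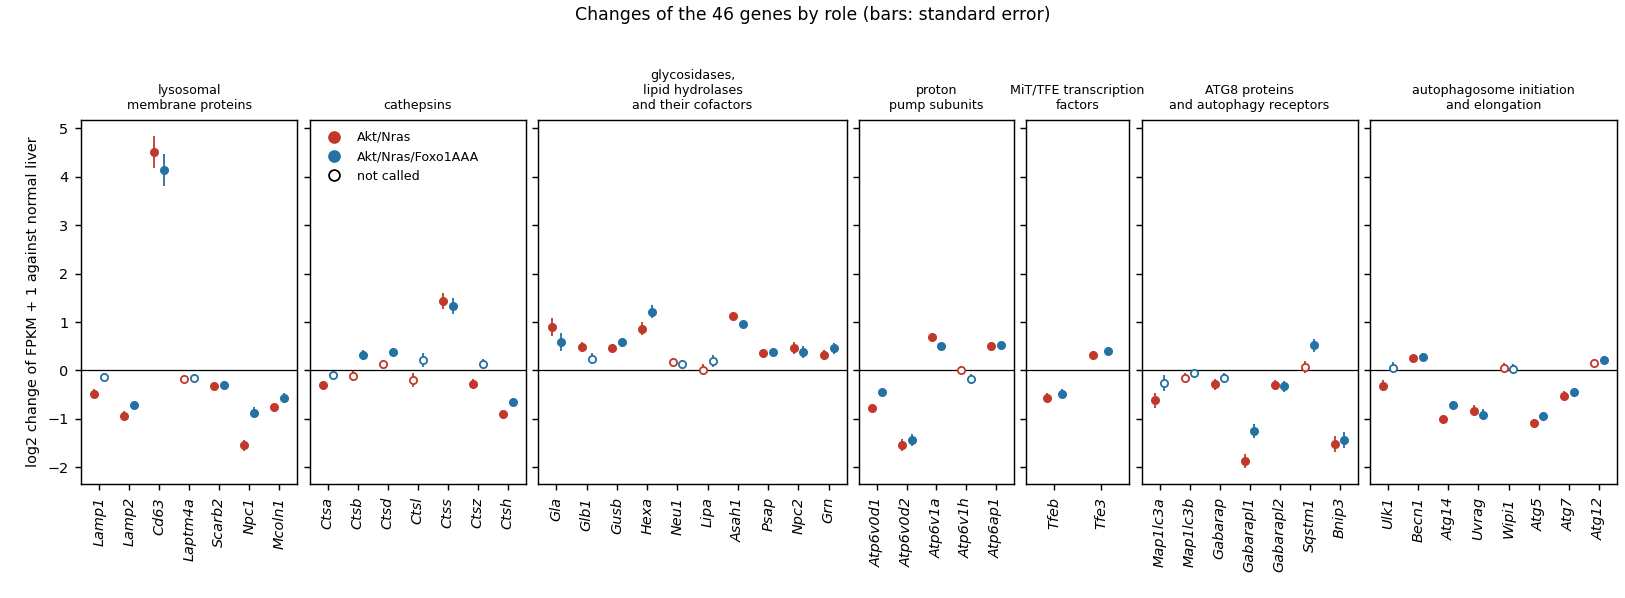
Log2 change of FPKM + 1 against normal liver for each gene, by role, in Akt/Nras (red) and Akt/Nras/Foxo1AAA tumours (blue); bars are standard errors and open points were not called. The third panel holds no called value below 0, and Cd63 stands alone at 4.51 and 4.14.

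The proton pump (V-ATPase) that acidifies lysosomes split within its own subunits: 2 of 5 members rose and 2 fell in each tumour group, and under equal totals 4 were higher and 1 lower in each. The 2 subunit d genes, which couple the rotor of the pump, both fell. Atp6v0d2, a form known from osteoclasts and macrophages, was 2.17, 2.75, 2.42 and 2.47 FPKM in normal livers, 0.157, 0.145 and 0.259 in Akt/Nras tumours and 0.122, 0.227 and 0.516 in Akt/Nras/Foxo1AAA tumours. It was the lowest member in every group and fell 13.1-fold and 8.52-fold (log2 -1.54 ± 0.12, adjusted p = 1.14e-06, and -1.43 ± 0.12, adjusted p = 3.21e-06). Every tumour value lay under the 1 FPKM filter, so the gene was tested only through the normal livers. The size of its fall is imprecise. Of the 16 tested genes of the macrophage list 11 rose and 3 fell in Akt/Nras tumours, and 11 rose and 0 fell in Akt/Nras/Foxo1AAA tumours. The part of macrophages in the fall of Atp6v0d2 was not tested. The common form Atp6v0d1 was 66.7, 65.8, 68.0 and 65.8 FPKM in normal livers, 37.0, 38.1 and 40.5 in Akt/Nras tumours and 51.6, 48.9 and 45.2 in Akt/Nras/Foxo1AAA tumours, with 3 groups that did not overlap. Its log2 changes of -0.78 and -0.45 (adjusted p = 3.93e-06 and 0.000292) became 0.18 and 0.26, both called higher, under equal totals.

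The catalytic subunit Atp6v1a was 9.19, 9.52, 9.18 and 10.3 FPKM in normal livers, 17, 15.4 and 15.3 in Akt/Nras tumours and 13.8, 13.6 and 14.4 in Akt/Nras/Foxo1AAA tumours. The accessory subunit Atp6ap1 was 32.0, 30.2, 32.2 and 32.4, then 47.3, 42.7 and 46.7, then 44.6, 46.7 and 46.3 FPKM in the same order. For both genes every tumour lay above every normal liver, and they rose by 0.68 and 0.51 in Akt/Nras tumours (adjusted p = 9.86e-06 and 6.67e-05) and by 0.50 and 0.52 in Akt/Nras/Foxo1AAA tumours (adjusted p = 0.000129 and 7.62e-05). Atp6v1h, which regulates the pump's catalytic part, was called in neither comparison.

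Of the 7 ATG8 proteins and receptors, which coat autophagosomes and select their cargo, 0 rose and 5 fell in Akt/Nras tumours, and 1 rose and 3 fell in Akt/Nras/Foxo1AAA tumours; equal totals gave 4 higher and 2 lower, and 5 and 2. Gabarapl1 (ENSMUSG00000030161), an ATG8 protein, was the second most abundant member of normal liver at 267 ± 18.2 FPKM (SD, n = 4), and its libraries read 249, 292, 265 and 262. It was 71.8, 62.3 and 84.4 FPKM in Akt/Nras tumours and 138, 107 and 94.2 in Akt/Nras/Foxo1AAA tumours, so the 3 groups did not overlap. The falls were 3.67-fold and 2.36-fold (log2 -1.87 ± 0.14, adjusted p = 8.06e-07, and -1.25 ± 0.14, adjusted p = 2.34e-05), and both calls held under every alternative. Its relatives differed less: Map1lc3b (LC3B), the usual marker protein of autophagosomes, was 24.6, 24.9, 30.8 and 28.4, then 26.5, 22.7 and 24.0, then 26.3, 23.9 and 27.6 FPKM in the same order. Its groups overlapped and it was called in neither comparison (-0.15 and -0.06), but under equal totals it was called higher in both (0.79, adjusted p = 4.13e-05, and 0.64, adjusted p = 0.000314).

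Map1lc3a and Gabarap fell in Akt/Nras tumours only among the comparisons with normal liver (-0.62 and -0.29), and Gabarapl2 in both (-0.30 and -0.33). All of these turned above 0 under equal totals. The Gabarap call was lost without normal liver 2, 3 or 4 or Akt/Nras tumour 2 (adjusted p up to 0.129). The Gabarapl2 calls were lost without normal liver 2, 3 or 4 or Akt/Nras tumour 2 or 3 (up to 0.0751), and without normal liver 2 or Akt/Nras/Foxo1AAA tumour 1 or 2 (up to 0.0689). ATG8 genes resemble each other, so reads could be shared between them.

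Bnip3, a receptor that marks mitochondria for autophagy, was 96.5, 107, 108 and 98.2 FPKM in normal livers, 45.1, 24.5 and 39.1 in Akt/Nras tumours and 39.3, 36.7 and 36.2 in Akt/Nras/Foxo1AAA tumours. All tumours lay below all normal livers, and the tumour groups overlapped (log2 -1.52 ± 0.17, adjusted p = 1.42e-05, and -1.43 ± 0.17, adjusted p = 3.11e-05). Sqstm1 (p62), the cargo receptor that is itself degraded by autophagy, went the other way. It was 134, 160, 137 and 142 FPKM in normal livers, 171, 120 and 165 in Akt/Nras tumours and 216, 188 and 211 in Akt/Nras/Foxo1AAA tumours. The Akt/Nras tumours lay on both sides of normal liver (0.07 ± 0.13, adjusted p = 0.64), whereas the Akt/Nras/Foxo1AAA tumours were all above it (0.52 ± 0.13, adjusted p = 0.00491).

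Of the 8 genes of autophagosome initiation and elongation 1 rose and 5 fell in Akt/Nras tumours, and 2 rose and 4 fell in Akt/Nras/Foxo1AAA tumours; under equal totals 5 were higher and 1 lower, and 4 and 2. Atg5, part of the enzyme that attaches ATG8 proteins to lipid, was 29.9, 35.8, 33.6 and 30.6 FPKM in normal livers, 14.0, 13.9 and 16.3 in Akt/Nras tumours and 18.0, 15.1 and 16 in Akt/Nras/Foxo1AAA tumours. It fell 2.21-fold and 1.99-fold (log2 -1.09 ± 0.10, adjusted p = 2.71e-06, and -0.95 ± 0.10, adjusted p = 1.18e-05), and the first was not called under equal totals (adjusted p = 0.104). Atg14, which directs the lipid kinase VPS34 to autophagosomes, was 5.06, 6.32, 5.15 and 5.12, then 2.05, 2.32 and 2.23, then 3.09, 2.82 and 2.77 FPKM in the same order. Its groups did not overlap (log2 -1.0 ± 0.09, adjusted p = 2.5e-06, and -0.72 ± 0.09, adjusted p = 4.19e-05), and the second was not called under equal totals (adjusted p = 0.169).

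Uvrag, which directs the same kinase to later steps, was 7.73, 9.06, 6.66 and 7.41 FPKM in normal livers, 4.62, 3.55 and 3.57 in Akt/Nras tumours and 3.95, 3.51 and 3.38 in Akt/Nras/Foxo1AAA tumours. All tumours lay below all normal livers (-0.83 ± 0.11, adjusted p = 6.86e-05, and -0.91 ± 0.11, adjusted p = 4.39e-05), and under equal totals the first was -0.01 (adjusted p = 0.958). Becn1, a core subunit of that kinase complex, was 6.48, 6.50, 6.33 and 6.20, then 8.74, 7.64 and 7.29, then 8.55, 7.67 and 7.67 FPKM. It rose in both comparisons (0.27, adjusted p = 0.0106, and 0.28, adjusted p = 0.00893). Atg7, the activating enzyme of the conjugation system, fell in both (-0.52 and -0.45) and turned above 0 under equal totals, and Wipi1 was called in neither.

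Atg12, which is joined to ATG5, was 3.41, 4.24, 4.28 and 4.33, then 4.95, 4.33 and 4.61, then 4.86, 4.76 and 4.98 FPKM. It was called in Akt/Nras/Foxo1AAA tumours (0.22, adjusted p = 0.0475), a call lost on leaving out any of 9 of the 10 libraries (adjusted p up to 0.113). Ulk1, the kinase that starts autophagy, fell in Akt/Nras tumours (-0.31 ± 0.11, adjusted p = 0.0224). That call was lost without normal liver 2 (0.0588) or tumour 1 (0.0915), and turned to 0.60 under equal totals.

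**Figure D3:**
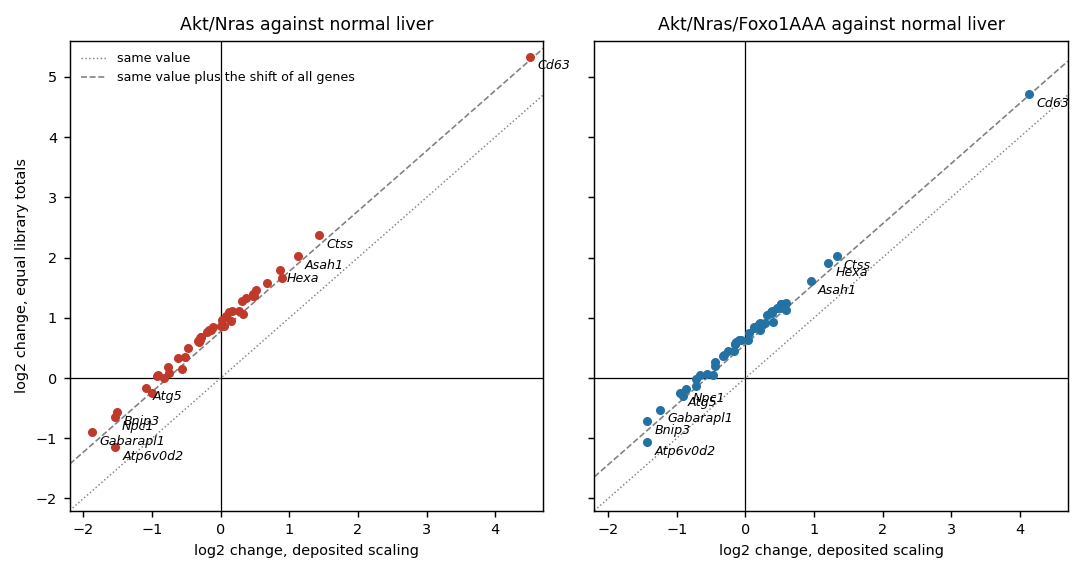
Log2 change against normal liver of the 46 genes with the deposited values (horizontal) and with equal library totals (vertical), for each tumour group. Points follow the dashed line, which is the shift of the median of all tested genes (from -0.07 to 0.70 and from -0.09 to 0.47), so that Cd63, Ctss, Asah1 and Hexa stay above 0 and Atp6v0d2, Gabarapl1 and Bnip3 below 0 on both axes.

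Equal totals divide all genes of a library by 1 number, so changes relative to the all-gene median stay nearly the same by construction. In Akt/Nras tumours 42 of 46 members lay on the same side of the all-gene median with the deposited values and with equal totals. In Akt/Nras/Foxo1AAA tumours 43 of 46 did. These counts are therefore no test of the scaling. The glycan and lipid enzymes among the members had a median 0.54 (deposited) and 0.66 (equal totals) above the all-gene median in Akt/Nras tumours. In Akt/Nras/Foxo1AAA tumours it was 0.51 and 0.65 above. For the lysosomal hydrolases and cofactors outside the members the difference was -0.15 and -0.01 in Akt/Nras tumours. It was 0.01 and 0.11 in Akt/Nras/Foxo1AAA tumours. The median of the autophagosome initiation and elongation genes differed from that of all genes by -0.35 and -0.22 in Akt/Nras tumours. In Akt/Nras/Foxo1AAA tumours it differed by only -0.11 and -0.05.

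The tumour groups were then compared with each other, which asks how the lysosome and autophagy genes differ when an AKT-resistant FOXO1 is added to the Akt and Nras tumours. This comparison shares its libraries with the comparisons above. Of the 46 members 6 were called higher in Akt/Nras/Foxo1AAA tumours and 0 lower, beside 12.1% of all tested genes called, 7.93% higher and 4.13% lower. At an unadjusted limma p under 0.05 the counts were 15 higher and 2 lower, and voom on the whole reads called 8 higher and 0 lower. The 6 were Npc1, Gabarapl1, Ctsb, Ctsz, Lamp1 and Atp6v0d1. The median log2 change of the members was 0.10 (all genes -0.01), and 34 of 46 members were above 0 (73.9%) against 48.7% of tested genes. Under equal totals 15 members were above 0 and 31 below, and 2 were called higher (Npc1 and Gabarapl1) and 5 lower, beside 31.3% of all tested genes called, 5.27% higher and 26.0% lower. Without the 50 most abundant genes in the totals 24 were above 0 and 22 below. Akt/Nras tumour 2 was the lowest of its group for 35 of the 46 members. With the deposited values but without that library, the median of the members was 0.04, and 1 member was called higher and 0 lower.

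Npc1 differed most, by 0.67 ± 0.12 (1.68-fold, adjusted p = 0.00898), and Gabarapl1 by 0.62 ± 0.15 (1.55-fold, adjusted p = 0.0258), with the library values given above. In Npc1, Gabarapl1 and Atp6v0d1 (0.33 ± 0.08, adjusted p = 0.024) the Akt/Nras/Foxo1AAA tumours lay between the Akt/Nras tumours and normal liver. So did Lamp1 on average (0.35 ± 0.09, adjusted p = 0.036), although its highest Akt/Nras/Foxo1AAA tumour reached the lowest normal liver.

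The other 2 called genes are proteases. Ctsb, a cysteine protease, was 147, 152, 142 and 147 FPKM in normal livers, 127, 123 and 160.3 in Akt/Nras tumours and 193, 185 and 174 in Akt/Nras/Foxo1AAA tumours. The Akt/Nras/Foxo1AAA tumours lay above all other libraries (0.44 ± 0.11, adjusted p = 0.0278 against Akt/Nras tumours; 0.32 ± 0.10, adjusted p = 0.0168 against normal liver, a call lost without tumour 1, adjusted p = 0.056). Ctsz, a carboxypeptidase, was 249, 218, 227 and 247, then 206, 163 and 215, then 272, 247 and 254 FPKM. It differed by 0.41 ± 0.11 (adjusted p = 0.0432) between tumour groups. Its fall in Akt/Nras tumours against normal liver (-0.28, adjusted p = 0.0377) turned to 0.69 under equal totals and was lost without normal liver 1, 3 or 4, Akt/Nras tumour 2 or Akt/Nras/Foxo1AAA tumour 2 (adjusted p up to 0.159). Ctsb overlaps Fdft1 and Ctsz overlaps Nelfcd on the opposite strand.

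**Figure D4:**
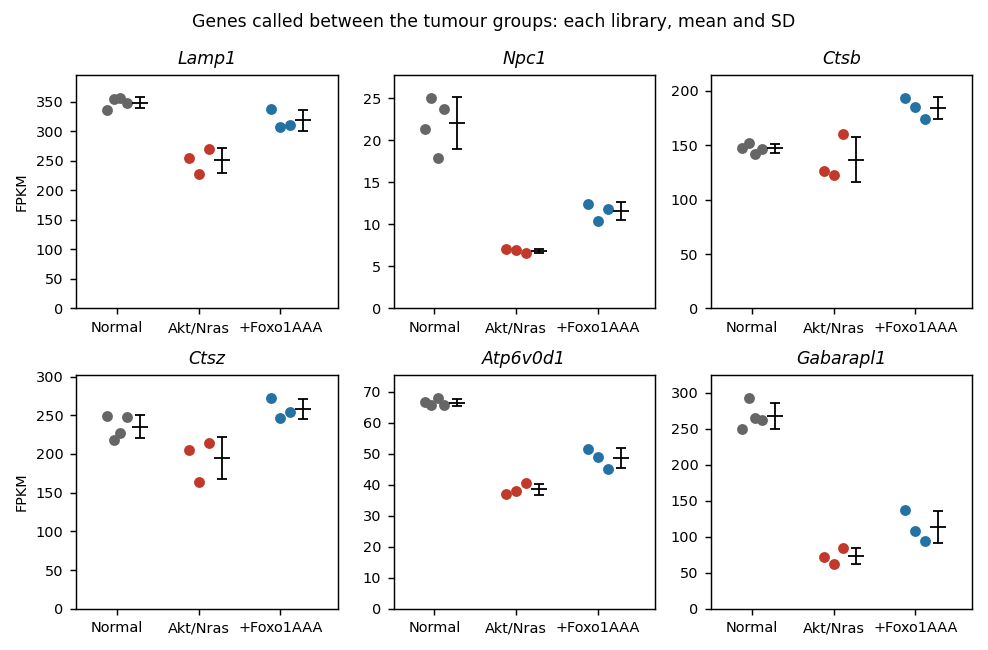
FPKM of the 6 genes called between the tumour groups in each library (points), with the group mean and SD (black). In all 6 panels the 3 Akt/Nras/Foxo1AAA tumours lie above the 3 Akt/Nras tumours; Ctsb and Ctsz reach or pass normal liver, and Npc1 and Gabarapl1 stay below it.

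Of these 6 calls only that of Npc1 held without each library in turn. Ctsb, Atp6v0d1 and Gabarapl1 were lost without Akt/Nras tumour 1 or 2 or Akt/Nras/Foxo1AAA tumour 1 or 2 (adjusted p 0.054 to 0.0979), Lamp1 without any of 8 libraries (up to 0.119) and Ctsz without any of 9 (up to 0.138). With the 2 tumour groups alone in the limma fit 0 members were called (11 higher and 1 lower at an unadjusted p under 0.05), and Npc1 had an adjusted p of 0.0522. Hepatocyte markers moved the same way: 6 of 8 rose between the tumour groups, and their part in the 6 calls was not tested. Sqstm1 (0.45, adjusted p = 0.0611), Ulk1 (0.37, adjusted p = 0.0587), Atg14 (0.28, adjusted p = 0.0752) and Ctsd (0.25, adjusted p = 0.0993) did not pass. Bnip3 differed by 0.09 ± 0.18 and Tfeb by 0.08 ± 0.10, and both turned below 0 under equal totals.

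Other genes of the same pathways were read from 6 lists of 142 genes, of which 130 were tested. In Akt/Nras tumours 30 rose and 66 fell (23.1% and 50.8%, against 31.1% and 37.9% of all tested genes). In Akt/Nras/Foxo1AAA tumours 30 rose and 52 fell (23.1% and 40.0%, against 26.8% and 36.5%). Between the tumour groups 10 were higher and 2 lower (7.69% and 1.54%, against 7.93% and 4.13%). Under equal totals the counts were 91 and 7, 89 and 7, and 2 and 28. Of the autophagosome machinery outside the 46 members, 23 of 32 fell and 2 rose in Akt/Nras tumours, and 20 fell and 2 rose in Akt/Nras/Foxo1AAA tumours (4 lower and 17 higher, and 4 and 16, under equal totals). Its median differed from that of all genes by -0.47 (deposited) and -0.47 (equal totals) in Akt/Nras tumours. In Akt/Nras/Foxo1AAA tumours the difference was -0.33 and -0.23. Atg3, the enzyme that conjugates ATG8 proteins to lipid, went from 29.2 to 35.3 FPKM in normal livers to 11.2 to 13.2 and 14.6 to 16.6 in the tumour groups (log2 -1.30 and -0.98). Wdr45, a lipid-binding scaffold, fell by 1.28 and 1.04, and Atg4a, a protease that processes ATG8 proteins, rose by 0.58 and 0.77. Nrbf2, a partner of the VPS34 complex, fell in Akt/Nras tumours (-0.38, turning to 0.46 under equal totals) and was higher in Akt/Nras/Foxo1AAA than in Akt/Nras tumours by 0.51 (adjusted p = 0.0207). The call between the tumour groups was lost on leaving out a library (adjusted p up to 0.0769) and under equal totals (0.067).

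Of 14 tested selective autophagy receptors 3 rose and 10 fell in Akt/Nras tumours, and 2 rose and 8 fell in Akt/Nras/Foxo1AAA tumours (7 and 1, and 7 and 0, under equal totals). Pink1, the kinase that flags damaged mitochondria, held 130 to 144 FPKM in the normal livers, against 49.6 to 59.4 in the Akt/Nras and 73.5 to 86.9 in the Akt/Nras/Foxo1AAA tumours. The groups did not overlap, and its log2 changes were -1.32, -0.80 and, between the tumour groups, 0.52 (adjusted p = 0.0109). Optn, a receptor for bacteria and mitochondria, fell by 1.10 and 0.81, while Fundc1, a receptor in the outer mitochondrial membrane, rose by 0.77 and 0.64. Stbd1, which links glycogen to autophagosomes, fell in Akt/Nras tumours (-0.78, 0.17 under equal totals) and was higher in Akt/Nras/Foxo1AAA than in Akt/Nras tumours by 0.54 (adjusted p = 0.0256).

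The platform that recruits mTORC1 to lysosomes held the largest single change of these lists. Rragd, a Rag GTPase whose gene is a known TFEB target, held 0.237 to 0.347 FPKM in the normal livers, against 9.32 to 18.6 in the Akt/Nras and 8.13 to 8.76 in the Akt/Nras/Foxo1AAA tumours (log2 3.47 ± 0.17, adjusted p = 5.23e-08, and 2.84 ± 0.17, adjusted p = 3.33e-07). Every normal liver lay under the 1 FPKM filter, so Rragd was tested only through the tumours, where it is high. Of the 11 tested genes of this list 2 rose (Rragd and Rraga) and 6 fell (Lamtor2, Lamtor4, Lamtor5, Flcn, Fnip1 and Fnip2) in each tumour group, and 6 were higher and 2 or 3 lower under equal totals. Lamtor4, a part of the Ragulator scaffold, fell by 1.27 and 1.01, and Fnip2, a partner of folliculin, by 1.23 and 1.13.

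**Figure D5:**
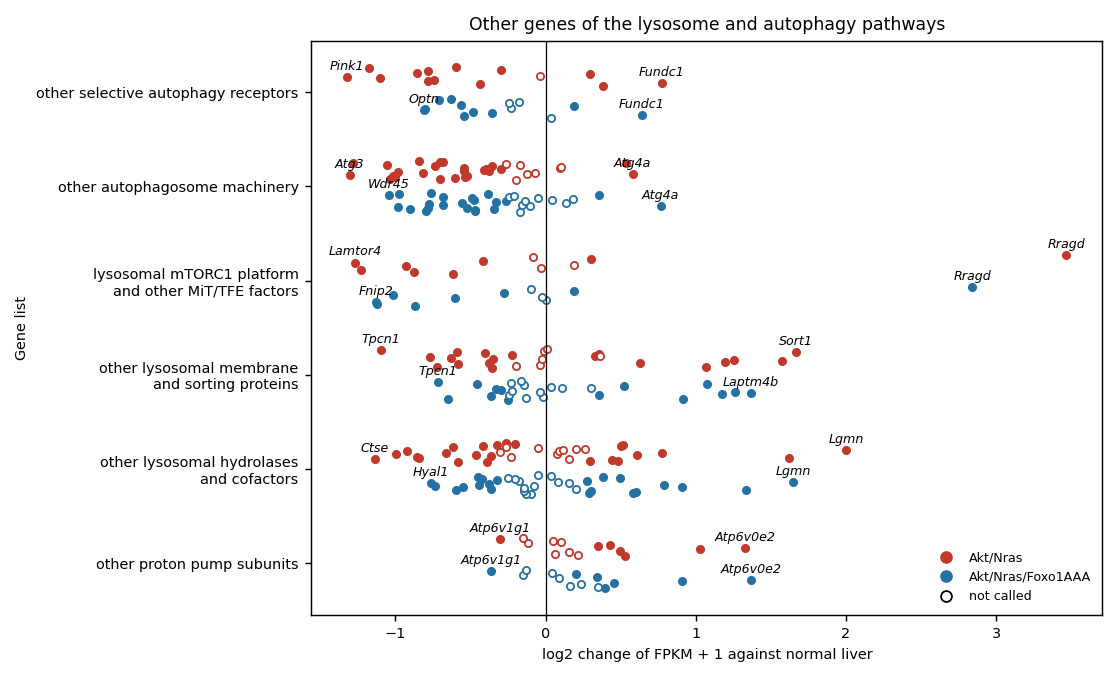
Log2 change against normal liver of the 130 tested genes of the 6 other lists in Akt/Nras (red) and Akt/Nras/Foxo1AAA tumours (blue); open points were not called and the called extremes are named. Rragd stands apart at 3.47 and 2.84, and the autophagosome machinery lies mostly below 0.

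Of 14 other tested proton pump subunits 6 rose and 1 fell in each tumour group (14 higher and 0 lower under equal totals). Atp6v0e2 rose from 3.09 to 5.0 FPKM to 11.8 to 13.1 and 11.6 to 13.8 (log2 1.33 and 1.37), and Atp6v1g1 fell by 0.30 and 0.36, turning above 0 under equal totals. The other 34 tested hydrolases and cofactors were mixed: 9 rose and 15 fell in Akt/Nras tumours and 11 rose and 10 fell in Akt/Nras/Foxo1AAA tumours (28 and 0, and 27 and 0, under equal totals). Lgmn, an asparagine-specific protease, rose from 33.7 to 37.1 FPKM to 118 to 171 and 88.0 to 147 (log2 2.0 and 1.65).

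Ctse, an aspartic protease, fell in Akt/Nras tumours (-1.14) and was higher in Akt/Nras/Foxo1AAA tumours than in these by 0.99 (adjusted p = 0.0122). The second call was lost on leaving out a library (adjusted p up to 0.0515). Hyal1, a hyaluronidase, fell by 0.92 and 0.77. Manba, beta-mannosidase, was called between the tumour groups alone, where it was lower by 0.44 on the log2 scale (-0.44, adjusted p = 0.0376). That call was lost on leaving out a library (adjusted p up to 0.119). Of the 25 other tested membrane and sorting proteins 8 rose and 11 fell, and 7 rose and 7 fell (19 and 0 in each under equal totals). Sort1, a sorting receptor, rose by 1.67 and 1.08 and was lower in Akt/Nras/Foxo1AAA than in Akt/Nras tumours (-0.59, adjusted p = 0.01). Laptm4b rose by 1.58 and 1.37, Tpcn1, a lysosomal ion channel, fell by 1.10 and 0.72, and Nagpa, an enzyme that uncovers the mannose-6-phosphate tag of lysosomal enzymes, fell by 0.77 and 0.33, turning above 0 under equal totals. Nagpa was higher in Akt/Nras/Foxo1AAA than in Akt/Nras tumours by 0.44 (adjusted p = 0.0359). This call was lost on leaving out a library (adjusted p up to 0.123) and under equal totals (0.201).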

How the data were processed

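RNA was sequenced from 10 mouse liver libraries, grouped by their titles. The authors deposited 1 table of FPKM per gene and library, per the file headers; the build GRCm38 and FastQC 0.11.7 are named in the submitters' processing notes, while the sources used here give no aligner, counter or strand setting and no choice between polyA capture and rRNA removal. FPKM multiplied by gene length gave whole reads (within 0.02) whose sum differed from the number the authors divided by: that number was 0.629 to 0.668 of the reads in normal liver, 1.00 to 1.06 in the Akt/Nras and 0.875 to 0.928 in the Akt/Nras/Foxo1AAA group. The deposited scaling was kept.

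Genes with at least 1 FPKM in 3 of 10 libraries were tested on log2(FPKM + 1), which understates changes of low genes, with limma 3.58.1 (R 4.3.3; lmFit, eBayes with trend) in 1 fit of all libraries, two-sided, Benjamini-Hochberg adjusted. The method was tested on simulated data. The labels do not say that replicates are separate mice, so p-values reflect only how these samples spread, which may be technical. The members, roles, the 6 other pathway lists and the 8 marker lists were chosen with earlier results of these data known.

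Library values are written out for the 2 called members with the largest rise and fall of each role per comparison, for members called between the tumour groups, and for Tfeb, Tfe3, Lamp1, Map1lc3b and Sqstm1; of each other list the called extremes are named, and Rraga, Lamtor2, Lamtor5, Flcn, Fnip1 and the Kupffer cell markers were named after their values were seen. Alternatives were 2 rescalings to equal totals, a pseudocount of 0.1, no filter, a 5 FPKM filter, the 2 groups alone, array weights, a replicate block and leaving out each library, and, chosen after seeing the data, voom on the whole reads and median-ratio scaling. Lamp1, Ctsa, Glb1, Map1lc3b and Grn also overlap other genes. Promoter sequences are RefSeq's. Figures were drawn with matplotlib.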

Additional observations from a re-analysis of the deposited data

Results flagged for a closer look

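In 4 of the 46 members a single normal liver stood apart from the other 3 by more of the group's range than Dixon's 95% critical value for 4 samples allows; chance flags about 1 in 20 such groups. Lamp2 was 73.6 FPKM in normal liver 1 against 81.6 to 83.0 in the others. Atg12 was 3.41 FPKM in the same library against 4.24 to 4.33. Ulk1 was 19.6 FPKM in normal liver 2 against 17 to 17.2. Atg14 was 6.32 FPKM in normal liver 2 against 5.06 to 5.15. Lamp2 and Atg14 stayed called in the comparisons with normal liver without each library in turn, while the calls of Ulk1 and Atg12 did not.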

How the results depend on the processing

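With every library set to equal totals the members called against normal liver became 34 higher and 5 lower for Akt/Nras and 34 and 5 for Akt/Nras/Foxo1AAA, and between the tumour groups 2 higher and 5 lower. Totals without the 50 most abundant genes gave 32 and 8, 31 and 7, and 3 and 2. The median of all genes shifted with them. Among log2 changes of named genes that were called with the deposited values, the new totals or both, 41 and 28 turned sign. Changes called with neither were not counted. Between the tumour groups 34 members were above 0 with the deposited values, 15 with equal totals and 24 without the 50 genes. With equal totals the values for Akt/Nras were Lamp1 0.49, Lamp2 0.026, Ctsa 0.66, Ctsb 0.85, Ctsl 0.76, Ctsz 0.69, Ctsh 0.045, Mcoln1 0.076, Tfeb 0.15, Atp6v0d1 0.18, Map1lc3a 0.33, Map1lc3b 0.79, Gabarap 0.68, Gabarapl2 0.63, Ulk1 0.60, Atg7 0.35, Laptm4a 0.80, Scarb2 0.61, Atp6v1g1 0.66, Nagpa 0.0946, Nrbf2 0.46 and Stbd1 0.17, and for Akt/Nras/Foxo1AAA Lamp1 0.59, Ctsa 0.62, Ctsh 0.053, Mcoln1 0.0705, Tfeb 0.058, Atp6v0d1 0.26, Atp6v1h 0.46, Map1lc3a 0.46, Map1lc3b 0.64, Gabarap 0.57, Gabarapl2 0.36, Atg7 0.20, Laptm4a 0.57, Scarb2 0.38, Atp6v1g1 0.36, Ctse 0.48, Manba 0.33, Nagpa 0.32 and Stbd1 0.46. Without the 50 genes they were Lamp1 0.23, Ctsa 0.40, Ctsb 0.59, Ctsl 0.50, Ctsz 0.43, Map1lc3a 0.0735, Map1lc3b 0.54, Gabarap 0.42, Gabarapl2 0.37, Ulk1 0.36, Atg7 0.11, Laptm4a 0.54, Scarb2 0.35, Atp6v1g1 0.40 and Nrbf2 0.23 for Akt/Nras, and Lamp1 0.47, Ctsa 0.50, Atp6v0d1 0.14, Atp6v1h 0.35, Map1lc3b 0.52, Gabarap 0.45, Gabarapl2 0.25, Atg7 0.0903, Laptm4a 0.45, Scarb2 0.27, Atp6v1g1 0.24, Nagpa 0.21 and Stbd1 0.34 for Akt/Nras/Foxo1AAA.

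Between the tumour groups the count of 6 higher and 0 lower members was 2 and 0 with no filter, 0 and 0 with the 2 groups alone and 11 and 1 with array weights; the cause was not tested. Leaving out each library in turn gave 1 to 6 higher and 0 lower there (1 without Akt/Nras tumour 2 or Akt/Nras/Foxo1AAA tumour 1 or 2, and 2 without Akt/Nras tumour 1), 13 to 15 higher and 18 to 21 lower for Akt/Nras, and 14 to 17 and 14 to 15 for Akt/Nras/Foxo1AAA. The replicate block is given below, and the other settings not named here kept each count of members within 1.5 times.

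The labels do not say whether same replicate numbers pair the samples. Deviations of same-numbered libraries correlated at -0.17 to 0.11, against -0.15 to 0.20 for other pairs. With so few libraries a group this does not settle whether they were paired. The replicate block gave 13 higher and 17 lower members for Akt/Nras, 14 and 14 for Akt/Nras/Foxo1AAA, and 1 and 0 between the tumour groups. Median-ratio scaling gave 15 and 17, 19 and 14, and 8 and 0, and voom on whole reads 14 and 21, 17 and 15, and 8 and 0. The planned count test on whole reads was not run, because the deposited values are FPKM, and voom stands in its place. Atp6v0d2 rested on as few as 6 reads in a library, so its level in the tumours is imprecise.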
